A study of Mus musculus with 2 samples.

Results

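The genes described here encode the extracellular matrix and the enzymes that cut it: collagens, laminins, fibrillins and fibulins, proteoglycans, adhesive proteins, lysyl oxidase, matrix metalloproteinases, ADAMTS proteases and TIMP inhibitors. They were chosen by symbol from the platform annotation: names that begin with Col and a digit, Adamts, Mmp and a digit (without Mmp8), Timp, Lama, Lamb, Lamc, Fbn or Fbln, plus 11 single genes (Bgn, Dcn, Lum, Sparc, Fn1, Lox, Loxl1, Loxl2, Vcan, Postn and Tnc). Of 10141 named genes with a value on the arrays, 67 met this rule, each read by 1 named probe. The rule goes by symbol and uses no intensity, though it was written with earlier results of these arrays known. RNA of mouse haematopoietic progenitors was hybridised to 1-colour CodeLink arrays (Cy5 label). 1 array held cells infected with E47ER and 1 array held cells infected with bHLHER, and all cells lacked E2A, the gene of the transcription factor E47. The source label of the bHLHER array calls its cells haematopoietic without the word progenitor, whereas the design text names progenitors for both. Induction by 4-hydroxytamoxifen lasted 6 h in both arms and began 48 h after infection. The labels state neither mouse strain, age and number of animals nor the promoter of the constructs and the origin of the bHLH part in bHLHER. With 1 array in each group, the differences have no replicate check, and no p-value was computed. No array held uninduced or uninfected cells. A gene called lower with E47ER is therefore equally higher with bHLHER, and a difference already present before induction cannot be told apart.

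The matrix is a scaffold of collagen fibrils and networks, laminin basement membranes, elastic microfibrils and proteoglycans. Fibroblasts and other stromal cells make most of it, and in bone marrow it holds haematopoietic progenitors in place and binds growth factors. Metalloproteinases and ADAMTS enzymes, which depend on zinc, cleave matrix proteins, and TIMPs block them. E47 belongs to the basic helix-loop-helix (bHLH) factors, which bind DNA at E-boxes. ER stands for oestrogen receptor, whose hormone-binding domain keeps a fused factor inactive until 4-hydroxytamoxifen is given.

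The intensities were used on the deposited linear scale. The array median was 0.957 for E47ER and 0.953 for bHLHER, and a gene above it on both arrays is called measured. An intensity belongs to its own probe, so each gene was compared between the arrays, and across genes only the place of its signal against the array's percentiles is given. A log2 ratio is that of the intensity with E47ER over the intensity with bHLHER, and a gene with a ratio of at least 1 in size, a fold of 2, is called higher or lower. This threshold is one of size and not a test. The pan-leukocyte markers were present, with 17 of 17 found on the array above the median in both groups. Of 7 progenitor markers 5 were above it in both groups, among them Kit (3.0 with E47ER and 2.66 with bHLHER) and Flt3 (2.19 and 2.0). Gata2 (0.0924 with E47ER and 0.166 with bHLHER) and Erg (0.848 and 0.739) were below it in both.

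Fewer than the usual share of matrix genes were measured, and 23 of the 28 measured had a log2 ratio below 0, 4 of them past 2-fold. Of the 67 genes, 28 were above the median on both arrays (41.8%), against 54.6% of all named genes. Another 1 was above it with E47ER only, 3 with bHLHER only and 35 with neither. Of the 28 measured genes, 4 were at least 2-fold lower with E47ER (14.3%), where the share over all 5534 measured genes was 0.813%. These were the collagen genes Col19a1 and Col6a1, the proteoglycan gene Bgn and the inhibitor gene Timp3. None was at least 2-fold higher, where the share over all measured genes was 2.31%. The 23 below 0 were 82.1% of the 28, against 55.8% of all measured genes. The median log2 ratio was -0.35 over the 28 genes and -0.05 over all measured genes. The lowest 2.5% of all measured genes lay under -0.79, and 6 of the 28 lay there, the 4 named and Lox and Fbln5. In RNA of a whole cell population, fewer cells of a type and less RNA per cell cannot be told apart.

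**Figure D1:**
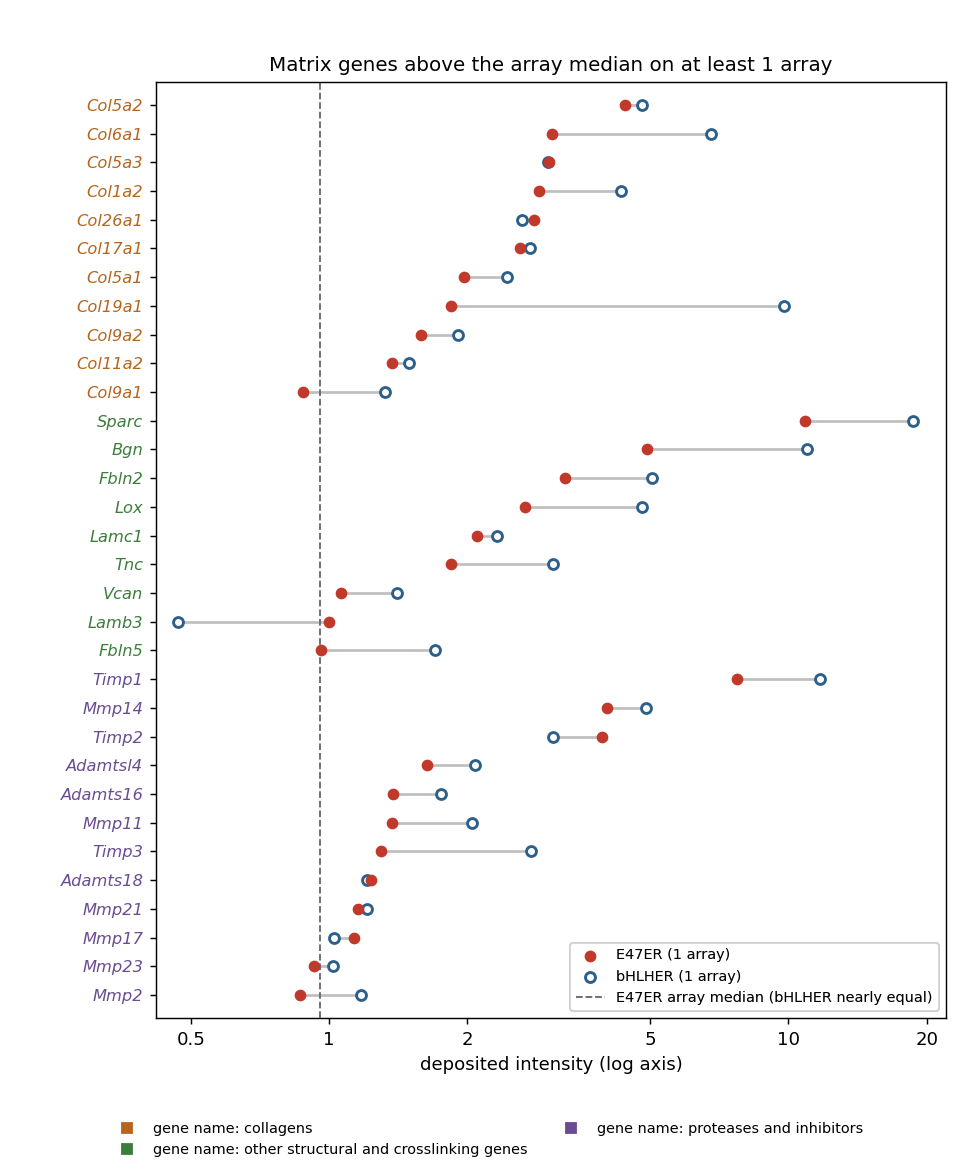
Deposited intensity (horizontal log axis) of the 32 matrix genes above the array median on at least 1 array, with 1 point per array (filled for E47ER, open for bHLHER) and gene names coloured by role. The E47ER point lies left of the bHLHER point for most genes, with the widest gap at Col19a1 (1.84 with E47ER and 9.77 with bHLHER), while Timp2, Lamb3 and a few close pairs go the other way.

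The sequences upstream of the 4 genes at least 2-fold lower are shown because E47 binds E-boxes and these genes lay low together. Each runs 5′ to 3′ on the strand of the gene and covers the 250 bases before the RefSeq start. Capitals mark each E-box, CANNTG, which reads the same form on both strands.
Col19a1 (GRCm38.p6, chr1:24587438-24587687, minus strand): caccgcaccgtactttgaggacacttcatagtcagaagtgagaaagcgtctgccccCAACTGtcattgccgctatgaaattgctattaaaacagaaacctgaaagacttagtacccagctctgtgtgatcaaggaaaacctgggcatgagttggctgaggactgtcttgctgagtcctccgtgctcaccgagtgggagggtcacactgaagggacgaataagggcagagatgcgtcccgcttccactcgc
Col6a1 (GRCm38.p6, chr10:76726045-76726294, minus strand): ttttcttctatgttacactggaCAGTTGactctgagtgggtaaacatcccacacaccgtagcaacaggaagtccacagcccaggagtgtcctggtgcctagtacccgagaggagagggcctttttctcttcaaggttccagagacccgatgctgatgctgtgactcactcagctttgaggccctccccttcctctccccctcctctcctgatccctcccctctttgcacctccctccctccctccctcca
Bgn (GRCm38.p6, chrX:73483351-73483600, plus strand): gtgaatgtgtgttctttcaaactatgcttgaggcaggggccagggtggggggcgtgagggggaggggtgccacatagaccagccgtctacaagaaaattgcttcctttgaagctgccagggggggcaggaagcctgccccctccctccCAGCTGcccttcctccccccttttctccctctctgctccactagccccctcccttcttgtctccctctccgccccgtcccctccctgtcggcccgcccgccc
Timp3 (GRCm38.p6, chr10:86300162-86300411, plus strand): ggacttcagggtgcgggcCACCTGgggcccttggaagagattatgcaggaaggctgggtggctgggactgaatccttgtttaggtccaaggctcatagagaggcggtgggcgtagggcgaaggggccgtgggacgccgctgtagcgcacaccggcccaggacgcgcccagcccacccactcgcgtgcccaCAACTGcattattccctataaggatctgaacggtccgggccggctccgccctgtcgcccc
All 4 windows held at least 1 CANNTG, as did 66.2% of all 32851 promoter windows of the same length. Of the forms to which E47 is known to bind well, CAGGTG (searched on both strands, where its reverse complement reads CACCTG) was found in the Timp3 window alone, beginning 232 bases before the start, against 17.2% of all windows. The palindrome CAGCTG was found in the Bgn window alone, 102 bases before the start, against 13% of all windows. Both forms are also counted under the general motif, with which they overlap. Over the matrix genes with an entry (48 genes, 58 windows), the first form occurred in 6 windows (10.3%), the palindrome in 8 (13.8%) and the general motif in 38 (65.5%). Among the 22 measured genes with an entry, 2 of 24 windows held the first form and 6 of 24 the palindrome. Among the 23 genes with an entry that were below the median on both arrays, these counts were 3 and 1 of 28. A match of letters is a description of the window and does not show binding.

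Of the collagens, which form the structural core of the matrix, 23 were on the array under a symbol and 10 were measured. 2 of the 10 were at least 2-fold lower with E47ER, beside 0.813% of all measured genes, and 8 lay below 0, beside 55.8%. The median log2 ratio was -0.19. The mean was -0.49, since Col19a1 lay far from the rest. Col19a1, a collagen that associates with fibrils and basement membrane zones, read 1.84 with E47ER against 9.77 with bHLHER. It was 5.31-fold lower (log2 ratio -2.41), the lowest ratio of all 5534 measured genes. Col6a1, a chain of the beaded-filament collagen VI around cells, had 3.06 with E47ER and 6.79 with bHLHER and was 2.22-fold lower.

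The fibrillar collagens, which make the rope-like fibrils of connective tissue, differed less. Of 8 on the array 5 were measured, all between the 2-fold limits. Col1a2, a chain of the main fibrillar collagen, had 2.86 with E47ER and 4.31 with bHLHER (log2 ratio -0.59). The chains of collagen V, which starts and regulates fibrils, were closer: Col5a1 had 1.97 with E47ER and 2.44 with bHLHER (-0.31). Col5a2 had 4.42 with E47ER and 4.79 with bHLHER (-0.12). Col5a3 had 3.01 with E47ER and 3.0 with bHLHER (0.0076). Col11a2, a chain of cartilage fibrils, had 1.37 with E47ER and 1.49 with bHLHER (-0.12).

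Among the remaining collagens, Col9a2, a fibril-associated chain of cartilage, had 1.59 with E47ER and 1.91 with bHLHER (log2 ratio -0.27). Its partner chain gene Col9a1 was above the median with bHLHER only, at 0.878 with E47ER and 1.33 with bHLHER, and was at least 1.39-fold lower. Col17a1, the transmembrane collagen of hemidesmosomes, had 2.60 with E47ER and 2.74 with bHLHER (-0.07). Col26a1 had 2.80 with E47ER and 2.63 with bHLHER (0.09), and with Col5a3 it was 1 of 2 measured collagens above 0. The 4 network-forming collagens on the array (Col4a3, Col4a6, Col8a1 and Col10a1), among them chains of the basement membrane, were all below the median in both groups. Their intensities ran from 0.0811 to 0.248 with E47ER and from 0.0325 to 0.280 with bHLHER. Col1a1, the other chain of the main fibrillar collagen, and Col3a1 were without a named probe and were not analysed here.

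**Figure D2:**
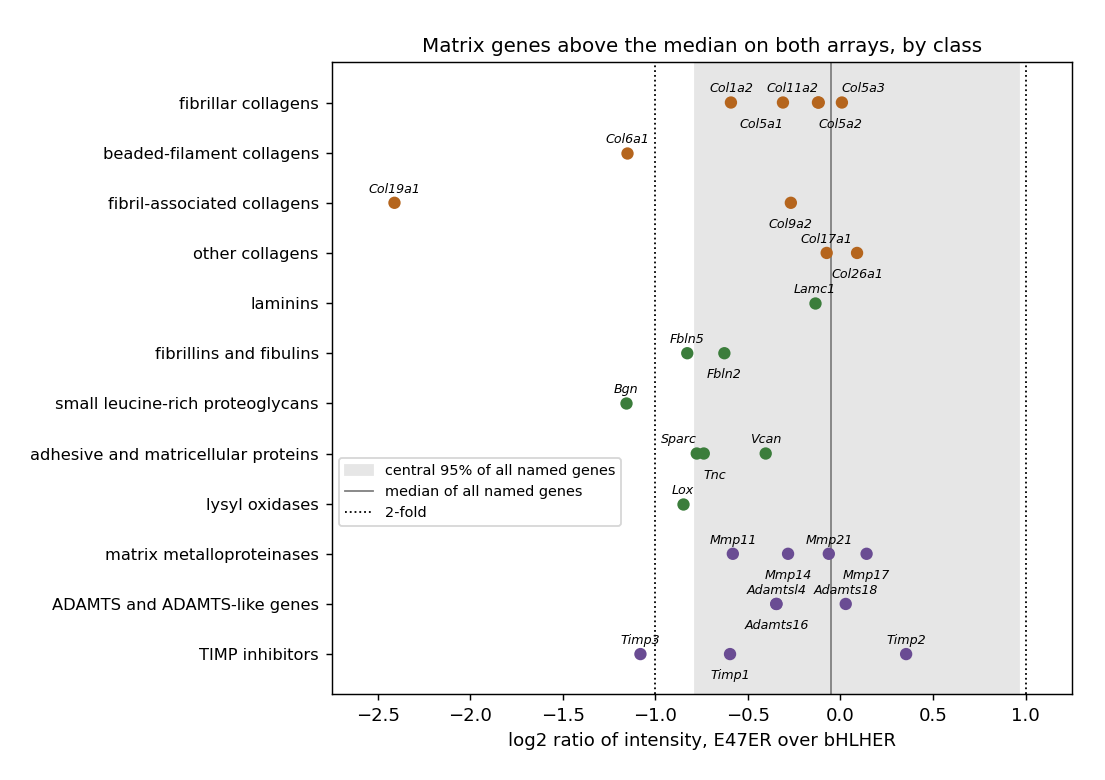
Log2 ratio of intensity with E47ER over bHLHER (horizontal axis) for the 28 matrix genes above the median on both arrays, 1 point per gene, by class. The 4 points left of the dotted 2-fold line are Col19a1, Bgn, Col6a1 and Timp3. The grey band holds the central 95% of all named genes above the median on both arrays, from -0.79 to 0.96.

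Of the 16 other structural and crosslinking genes on the array, 8 were measured. All 8 had a log2 ratio below 0, beside 55.8% of all measured genes. The ratios ran from -1.16 to -0.14, with a median of -0.76. 1 of the 8 was at least 2-fold lower, beside 0.813% of all measured genes. This was Bgn, which encodes biglycan, a small proteoglycan that binds collagen fibrils, with 4.92 with E47ER and 11 with bHLHER (2.23-fold lower). The related proteoglycan genes Dcn (0.162 with E47ER and 0.0342 with bHLHER) and Lum (0.105 and 0.206) were below the median in both groups, so no fold is given. Lox, the enzyme that oxidises lysines to crosslink collagen and elastin, had 2.67 with E47ER and 4.81 with bHLHER (log2 ratio -0.85).

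The adhesive and matricellular genes lay in the same range. Sparc, which encodes a collagen-binding glycoprotein, had 10.9 with E47ER and 18.6 with bHLHER (log2 ratio -0.78). Tnc, the gene of tenascin C, had 1.84 with E47ER and 3.07 with bHLHER (-0.74). Vcan, the gene of the large proteoglycan versican, had 1.06 with E47ER and 1.41 with bHLHER (-0.40), close to the array medians. Postn, the gene of periostin, was below the median in both groups, at 0.0306 with E47ER and 0.0971 with bHLHER. Fn1, which encodes fibronectin, was without a named probe and was not analysed here.

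Fibulins help to assemble elastic fibres. Fbln2 had 3.26 with E47ER and 5.04 with bHLHER (log2 ratio -0.63). Fbln5 had 0.959 with E47ER and 1.70 with bHLHER (-0.83), but its E47ER value was only 0.158% above the array median. Fbln1 (0.819 with E47ER and 0.824 with bHLHER) and the fibrillin gene Fbn2 (0.123 and 0.102) were below the median in both groups. Of the laminins, the cross-shaped proteins of basement membranes, Lamc1 had 2.10 with E47ER and 2.32 with bHLHER (-0.14). Lamb3, a chain of epithelial laminin, was above the median with E47ER only, at 1.0 with E47ER and 0.470 with bHLHER, and was at least 1.05-fold higher. Lama1 and Lamb2 were below the median in both groups.

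The proteases and their inhibitors were the class with the smallest share measured, 10 of 28 (35.7%), against 54.6% of all named genes. Of the 10 measured, 1 was at least 2-fold lower, beside 0.813% of all measured genes. In the same class 7 of the 10 lay below 0, beside 55.8% of all measured genes, and the median log2 ratio was -0.31. Of 18 metalloproteinase genes 4 were measured. Mmp14, a membrane-bound collagenase that activates the proenzyme of Mmp2, had 4.03 with E47ER and 4.90 with bHLHER (log2 ratio -0.28). Mmp11, a stromal metalloproteinase, had 1.37 with E47ER and 2.05 with bHLHER (-0.58). Mmp17, which is anchored in the membrane, had 1.13 with E47ER and 1.03 with bHLHER (0.14), and Mmp21 had 1.16 with E47ER and 1.21 with bHLHER (-0.06). The last 2 genes lay close to the array medians.

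The gelatinase gene Mmp2 was above the median with bHLHER only, at 0.863 with E47ER and 1.17 with bHLHER, and was at least 1.23-fold lower. Mmp23 had 0.926 with E47ER and 1.02 with bHLHER and was at least 1.07-fold lower. The other gelatinase gene, Mmp9, was below the median in both groups, at 0.108 with E47ER and 0.0751 with bHLHER. So were the genes of the collagenases Mmp13, Mmp1a and Mmp1b, the stromelysins Mmp3 and Mmp10, the macrophage elastase Mmp12 and matrilysin, Mmp7. Mmp1a and Mmp1b are close copies, so their probes may share signal. The neutrophil collagenase gene Mmp8, which the naming rule leaves out, had 2.15 with E47ER and 5.87 with bHLHER and was 2.73-fold lower.

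Of 7 ADAMTS and ADAMTS-like genes 3 were measured, all between the 2-fold limits. Adamts16 had 1.38 with E47ER and 1.75 with bHLHER (log2 ratio -0.35). Adamts18 had 1.23 with E47ER and 1.21 with bHLHER (0.03). Adamtsl4, whose product binds fibrillin microfibrils and has no protease part, had 1.63 with E47ER and 2.08 with bHLHER (-0.35). The aggrecan-cleaving proteases Adamts4 (0.147 with E47ER and 0.0871 with bHLHER) and Adamts5 (0.451 and 0.407) were below the median in both groups.

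All 3 TIMP genes on the array were measured, and they did not go the same way. Timp3, whose product stays bound to matrix and blocks metalloproteinases and ADAMTS enzymes, had 1.3 with E47ER and 2.75 with bHLHER (2.12-fold lower, log2 ratio -1.08). With a pseudocount this was -0.96, under the threshold. Timp1, a secreted inhibitor, had 7.73 with E47ER and 11.7 with bHLHER (-0.60). Timp2, which blocks metalloproteinases and also takes part in the activation of the Mmp2 proenzyme by Mmp14, had 3.94 with E47ER and 3.08 with bHLHER. Its log2 ratio of 0.35 was the highest of the 28 and turned to -0.07 when ratios were centred on pan-leukocyte markers.

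The 35 genes below the median on both arrays had intensities from 0.0306 to 0.868 with E47ER and from 0.0176 to 0.919 with bHLHER. They comprised 12 collagens, 12 metalloproteinases, 4 ADAMTS genes and 7 other structural genes. None was at or below 0. No fold is given for them, because the arrays have no detection call here and values this low have no settled order.

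Since the ratio of a weak signal can depend on its level, the genes were also set apart by signal. Of the 28 measured matrix genes, 24 (85.7%) had a mean intensity up to the 75th percentile of the arrays, against 44.9% of all measured genes. Within that range the median log2 ratio was -0.30 over the 24 matrix genes and -0.01 over all 2483 genes, and 19 of the 24 lay below 0, against 51.4% of all. In the same range 2 of the 24 were at least 2-fold lower, where the share of all genes was 0.846%, and none was at least 2-fold higher, where it was 2.26%. Col19a1 and Bgn lay above that range by their mean, Col19a1 only narrowly. On the E47ER array both (1.84 and 4.92) were under the 75th percentile of 5.78. No gene of the 28 had a second probe, so none of these ratios was checked by another probe. Elsewhere on the array 34 genes had a pair of measured probes, whose log2 ratios lay a median of 0.24 apart, with a 90th percentile of 0.71 and a largest gap of 3.83, wider than the ratio of Col19a1.

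**Figure D3:**
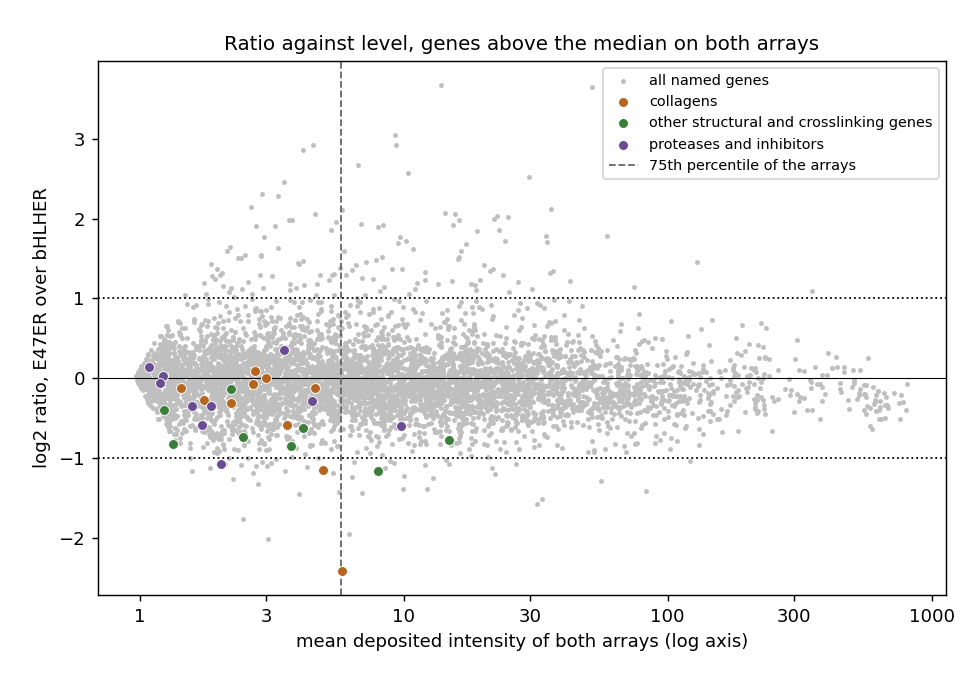
Log2 ratio of E47ER over bHLHER (vertical axis) against the mean deposited intensity of both arrays (horizontal log axis) for all 5534 measured genes (grey) and the 28 measured matrix genes (coloured by role). Of the coloured points 24 lie at or left of the dashed 75th percentile, 23 lie below 0, and Col19a1 is the lowest point of all.

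Other parts of the matrix system were described from lists of genes outside the naming rule. The same background stands beside them: 0.813% of all measured genes at least 2-fold lower, 2.31% at least 2-fold higher and 55.8% below 0. Of 41 other core matrix genes on the array 10 were measured, 9 below 0, with a median log2 ratio of -0.45. The 1 past 2-fold was Mgp, which encodes the calcification inhibitor matrix Gla protein, at 17.1 with E47ER and 36 with bHLHER (2.10-fold lower). Of 18 genes for collagen processing and crosslinking 10 were measured, none past 2-fold and 7 below 0, with a median of -0.31. Pcolce, which encodes an enhancer of procollagen C-terminal cleavage, had 5.11 with E47ER and 9.80 with bHLHER (log2 ratio -0.94), and Colgalt1, a collagen galactosyltransferase gene, had 57.4 with E47ER and 34.5 with bHLHER (0.73). Both were chosen for naming after their values were seen. Serpinh1, the collagen chaperone gene, had 1.08 with E47ER and 1.09 with bHLHER (-0.02), close to the array medians.

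The receptors, the other proteases and the TGF-beta pathway had medians closer to 0. Of 20 matrix receptor genes 5 were measured, none past 2-fold, with a median log2 ratio of -0.16. A further 4 receptor genes were above the median with bHLHER only, among them the laminin-binding integrin gene Itga6, at least 1.99-fold lower. Of 27 other proteases and inhibitors 14 were measured, 7 below 0 and 7 above, with a median of -0.01. Mmp8 was the 1 at least 2-fold lower. Ctsl, the gene of the lysosomal protease cathepsin L, was the 1 at least 2-fold higher, at 24.6 with E47ER and 8.16 with bHLHER (3.02-fold). The TGF-beta list held 15 genes of ligands, receptors, Smads and other linked genes of a pathway that induces matrix genes in fibroblasts. Of these 7 were measured, none past 2-fold, with a median of 0.12 and a mean of -0.08. Tgfb1, with 48.2 with E47ER and 37.5 with bHLHER, had the highest ratio of the 7 (0.36). 4 of the 7 lay above 0, and Tgif1 (-0.64), Nrros (-0.64) and Tgfbr2 (-0.39) lay below. The ligand gene Tgfb3 was above the median with E47ER only, at 1.65 with E47ER and 0.683 with bHLHER, and was at least 1.73-fold higher.

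Of 23 markers of stromal and smooth muscle cells that are no matrix genes, 13 were measured. None passed 2-fold and 9 of the 13 lay below 0, beside 55.8% of all measured genes, with a median log2 ratio of -0.32. Their summed intensity was 414 with E47ER and 406 with bHLHER, most of it from Lgals1 (339 and 318), and without that gene it was 74.6 and 87.8. Acta2, the smooth muscle actin gene, had 12.3 with E47ER and 22.8 with bHLHER (-0.88), and the platelet-derived growth factor receptor gene Pdgfrb had 1.3 with E47ER and 2.29 with bHLHER (-0.81). Igfbp4 went the other way, with 20.5 with E47ER and 12.4 with bHLHER (0.73). Acta2 had the lowest ratio of the 13 and Igfbp4 the highest, and they were named with their values known. None of the 23 was listed at 0, but Cnn1, Cdh11, Thy1, Prrx1, Twist1, Fap, Cav1 and Gas1 were below the median in both groups. The part of these markers in the ratios of the matrix genes was not tested.

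The leukocyte markers lay the opposite way, with 13 of 17 above 0, beside 2446 of all 5534 measured genes, and a median log2 ratio of 0.43. Their summed intensity was 691 with E47ER and 464 with bHLHER, and Cd52 (2.54-fold) and Laptm5 (2.13-fold) were at least 2-fold higher. Of 8 monocyte and macrophage markers 6 were measured, with a median of -0.44. Their summed intensity was 30.9 with E47ER and 45.6 with bHLHER. The chemokine receptor gene Ccr2 was 2.18-fold lower (13.6 with E47ER and 29.7 with bHLHER), a wider gap than that of the whole sum. The scavenger receptor gene Marco was 4.86-fold higher (5.54 and 1.14). Progenitor markers had a median of 0.13 over 5 of 7. Their summed intensity was 190.6 with E47ER and 141.9 with bHLHER, most of it from Ly6e (162 and 106). The direction of this sum is that of Ly6e, and Meis1, with the next largest intensity, went the other way. Of the 5 measured, 3 lay above 0 and 2 below. Below 0 were Meis1, with 20.5 with E47ER and 28.5 with bHLHER (-0.47), and Hoxa9 (-0.52). The endothelial list had 1 of 8 above the median, Pecam1, which leukocytes also express, and its defining genes Cdh5 (0.103 with E47ER and 0.0616 with bHLHER), Kdr, Tek and Tie1 were below it in both groups. Of 6 megakaryocyte and platelet markers 1 was measured, Gp9, while Pf4, Ppbp and Itga2b were below the median in both groups.

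**Figure D4:**
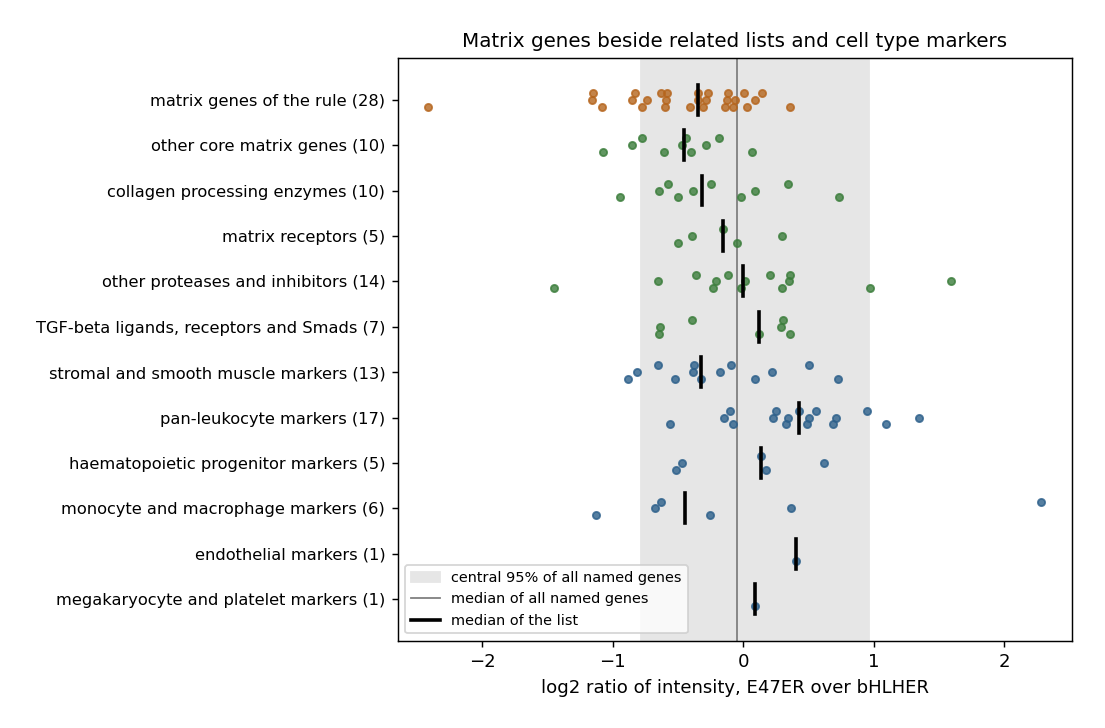
Log2 ratio of E47ER over bHLHER (horizontal axis) for the genes above the median on both arrays in each list, 1 point per gene, with the number measured in brackets and a black bar at the list's median. The medians of the matrix genes (-0.35), the other core matrix genes (-0.45) and the stromal markers (-0.32) lie left of the median of all measured genes. So do those of the monocyte and macrophage markers (-0.44), the collagen processing enzymes (-0.31) and the matrix receptors (-0.16). That of the pan-leukocyte markers (0.43) lies right of it.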

How the data were processed

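The deposited table gave an intensity for 20289 probes on each array. The authors' deposited intensities were linear. Their medians of 0.957 (E47ER) and 0.953 (bHLHER) point to a common scaling, but its method and any background correction are not stated in the labels or the file. No further normalization was applied. On the E47ER array 119 probes had no value and 45 were at or below 0, and on the bHLHER array 125 and 84. The platform annotation named 10349 probes, all of whose gene identifiers matched RefSeq GRCm38.p6, which gave names and promoter sequences. 9940 probes were unnamed here. Of several probes of a gene, that with the highest mean was taken. The number of arrays limits the precision.

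Members, lists and alternatives were chosen with earlier results of these data known. All members above the array median on at least 1 array were named, with Col1a1, Col1a2, Col3a1, Fn1, Mmp2, Mmp9, Mmp14, Timp1, Timp2 and Vcan whatever their values, and up to 4 genes past 2-fold of each list. Other list genes, among them Pcolce, Colgalt1, Acta2, Pdgfrb, Igfbp4 and Tgfb1, did not pass 2-fold. They were named outside this plan, with their values known. A gene above the median on 1 array only received a bound ("at least N-fold"), with its other value raised to that array's median where it lay under it. Of 248 listed genes 190 were found. The call procedure was tested on simulated data, with changes placed only in genes well above the array median. These changes were larger than those of Bgn, Col6a1 and Timp3. The test therefore does not cover folds close to 2 or signals near the median. Python 3.11.15, pandas 2.3.3, R 4.3.3 and limma 3.58.1 were used. Alternatives were quantile normalization, loess (span 0.3), scaling to the 75th percentile, other floors, the mean over probes, a pseudocount, a threshold of 1.5 and centring on pan-leukocyte markers.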

Additional observations from a re-analysis of the deposited data

How the results depend on the processing

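No paired analysis was possible because E47ER and bHLHER have a single array each, which also leaves no replicate to omit. Col19a1, Bgn and Col6a1 stayed at least 2-fold lower under quantile normalization, loess, scaling to the 75th percentile and the pseudocount. Timp3 did so in all of these except the pseudocount (-0.96). The mean over probes, the 25th percentile floor, no floor and centring on pan-leukocyte markers could not undo a lower call. Each of these genes has 1 named probe, a lower floor leaves the ratio as it was, and centring lowers every ratio. The count of 28 measured genes was 46 for a 25th percentile floor, 67 without a floor and 2 for a 75th percentile floor, where their median log2 ratio was -0.69 and no class median could be given. The count of 4 lower genes was 0 with the floor at the 75th percentile, 12 with the centring and 1 with a threshold of 1.5 on the log2 scale, where Col19a1 remained and Bgn (-1.16), Col6a1 (-1.15) and Timp3 (-1.08) did not pass. The count of 0 higher genes was 1 (Lamb3) for the 25th percentile floor and 6 of 67 without a floor. In that last setting 5 of the 67 were lower, with Postn (-1.67) added, and the shares over all genes were 5.40% higher and 3.45% lower. Centring lowers every log2 ratio by 0.43. The median of all measured genes is then -0.48 and that of the matrix genes -0.77. Those of the collagens, the other structural genes and the proteases with inhibitors are -0.62, -1.19 and -0.74. All 28 genes then lay below 0, and the split of all measured genes into higher and lower was 63 and 376, against 128 and 45 without it. Signal near the array medians limits these results, since few of the 28 genes reach the 75th percentile on both arrays. The alternative without Col4a3bp was not run, because that gene had no named probe.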
